A study of Mus musculus with 20 samples.

Results

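Expression of 10 genes of the p53 pathway was followed in white and brown fat of mice that lost α4 in adipocytes: Trp53, Mdm2, Cdkn1a, Cdkn2a, Cdkn2b, Bax, Bbc3, Pmaip1, Gdf15 and Ccng1. They were chosen by symbol, and all 10 were found among the 25219 genes of the deposited table. Inguinal white adipose tissue (iWAT) and brown adipose tissue (BAT) of male mice on a mixed C57Bl/6 background were sequenced, giving 5 libraries for each of 4 groups. Ai-α4KO mice carried floxed alleles of Igbp1, the gene of α4, with CreERT2 driven by the Adiponectin promoter, which is active in adipocytes. Control mice carried the floxed alleles without CreERT2, per the methods of the study, and are called WT in the labels. Both genotypes received tamoxifen, 5 injections of 100 mg/kg over 6 days from 2 months of age, and tissue was taken 1 week after recombination. The other cells of the tissue keep α4 in this model, and the labels do not say whether the same mice gave both tissues.

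p53, the product of Trp53, is a transcription factor that accumulates after DNA damage and other stresses. It raises transcription of genes that stop the cell cycle or start apoptosis, and of Mdm2, a ubiquitin ligase that returns p53 to a low level. Cdkn1a encodes p21, an inhibitor of cyclin-dependent kinases, while Cdkn2a and Cdkn2b encode inhibitors that are widely used as markers of senescence, a lasting arrest of growth. Bax, Bbc3 (PUMA) and Pmaip1 (NOXA) belong to the BCL2 family and promote the release of cytochrome c from mitochondria. Gdf15 encodes a secreted stress hormone and Ccng1 encodes cyclin G1, and both are known targets of p53. Several of these genes also answer to other pathways, such as the ATF4 arm of the stress response in the case of Gdf15.

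p53 binds a pair of copies of a decamer consensus that has C at position 4 and G at position 7. Both strands of the 300 bases around each annotated start (250 before and 50 after) were searched for the decamer in RefSeq windows of GRCm38.p6, of which 14 belonged to 9 of the 10 genes. The decamer reads the same way on both strands, so a site counts once. It was present in 35.7% of these 14 windows and in 8.36% of all 32851 windows. The matches of 5 genes are shown with 25 bases on either side, on the strand of the gene, because these are the matches next to the starts of genes whose levels are given below. A single decamer is not a full p53 site, and of these 5 genes only Cdkn1a held a pair. Capitals mark the decamer.
Trp53, chr11:69580259-69580318, plus strand: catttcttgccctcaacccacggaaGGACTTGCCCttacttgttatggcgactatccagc
Mdm2, chr10:117710910-117710969, minus strand: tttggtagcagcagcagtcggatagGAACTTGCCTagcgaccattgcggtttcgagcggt
Cdkn1a, chr17:29090881-29090962, plus strand: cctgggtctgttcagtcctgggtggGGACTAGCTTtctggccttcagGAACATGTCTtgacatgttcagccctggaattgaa
Bax, chr7:45467065-45467124, minus strand: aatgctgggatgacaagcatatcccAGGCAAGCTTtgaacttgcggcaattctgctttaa
Ccng1, chr11:40755437-40755496, minus strand: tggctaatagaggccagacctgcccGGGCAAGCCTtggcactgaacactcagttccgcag
Cdkn1a had 2 decamers by its annotated start at 29090979, which began 73 and 51 bases before it with 12 bases between them. Its window at another annotated start, 29093769, held none. Of all windows, 0.0731% held a pair at most 13 bases apart. The single decamer began 201 bases before the start in Bax, 186 in Mdm2, 185 in Ccng1 and 75 in Trp53. The windows of Cdkn2a, Cdkn2b, Bbc3 and Gdf15 held none, which says only that these letters are not in these windows. The best-known p53 sites of Mdm2 lie inside the gene, outside these windows.

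The libraries held between 24023371 and 50384446 counts. Levels are given as CPM, read counts per library total after TMM normalization over all 20 libraries, which puts the 4 groups on 1 scale. A gene was called where edgeR's quasi-likelihood test within a tissue gave a Benjamini-Hochberg adjusted p below 0.01 over all genes tested and a fold change of at least 2. Igbp1 was at 57.5 to 76.6 CPM in Control iWAT and 10.1 to 11.1 CPM in Ai-α4KO iWAT, at 85.4 to 105 CPM in Control BAT and 13.7 to 25.2 CPM in Ai-α4KO BAT, and was called lower in both tissues. Brown adipocyte markers summed to 7177 to 11177 CPM in Control BAT and 87.5 to 803 CPM in Control iWAT. B cell markers stood at 385 and 154 CPM in Control iWAT libraries 1 and 4, against 5.16 to 6.86 CPM in the others of that group, and T cell markers at 156 and 178 CPM against 6.30 to 7.55 CPM. Skeletal muscle markers stood at 6174 CPM in Control iWAT library 4 and 3400 CPM in Ai-α4KO iWAT library 1, against at most 159 CPM in the other iWAT libraries. Macrophage markers summed to 1058 to 1776 CPM in Control and 6853 to 9252 CPM in Ai-α4KO iWAT, and to 212 to 481 CPM and 4039 to 6565 CPM in BAT, and all 6 genes of that list were called higher in both tissues. Markers of cycling cells summed to 34.1 to 59.7 CPM in Control and 191 to 362 CPM in Ai-α4KO iWAT, and to 6.69 to 14.3 CPM and 86.3 to 156 CPM in BAT, with 5 of 5 called higher in each. Adipocyte markers summed to 20501 to 26446 CPM in Control and 11169 to 15622 CPM in Ai-α4KO iWAT, and to 19574 to 22849 CPM and 12515 to 14817 CPM in BAT, with 5 of 6 called lower in each. Brown adipocyte markers summed to 7.64 to 20.95 CPM in Ai-α4KO iWAT and 1374 to 2789 CPM in Ai-α4KO BAT, with 4 and 2 of 5 called lower. Neutrophil markers summed to 13.9 to 74.9 CPM in Control and 102 to 379 CPM in Ai-α4KO iWAT, and to 9.99 to 33.2 CPM and 169 to 301 CPM in BAT, with 3 and 4 of 4 called higher. Endothelial markers summed to 334 to 437 CPM in Control and 197 to 239 CPM in Ai-α4KO iWAT, and to 629.7 to 863 CPM and 235 to 303 CPM in BAT, with 2 and 3 of 4 called lower. T cell markers were called higher in BAT for 3 of 5 genes. None of these marker genes was at 0 throughout a group. In bulk tissue, fewer cells of a type and less RNA per cell cannot be told apart, and the part of these cell types in the results that follow was not tested.

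In iWAT, 5 of the 10 genes were called higher after α4 loss: Mdm2, Cdkn1a, Bax, Pmaip1 and Gdf15. The edgeR test called 0 lower, as did DESeq2, and at an unadjusted p below 0.05 the 1 gene with a lower value was Bbc3. In BAT, Pmaip1 and Gdf15 were called higher, while Mdm2 and Bax passed the p but stayed under the 2-fold limit and Cdkn1a did not rise. Cdkn2a did not pass the filter on low counts in either tissue, so 9 genes were tested, and Gdf15 passed it through the Ai-α4KO libraries. Over all 14604 genes tested in iWAT 11.3% were called higher and 10.7% lower, and over all 14344 in BAT 18.2% were called higher and 13.3% lower. The median log2 fold change of the 9 genes was 1.10 in iWAT and 0.81 in BAT, against 0.01 and -0.03 over all genes tested. In iWAT the libraries of the genotypes were fully apart for 6 of the 9 genes, against 39% of all genes tested, and in BAT for 4 of the 9, against 47.6%. The share in BAT was close to that background. The number called in BAT depended on the scaling, and was 6 with library size alone, where the median of all genes moved to 0.23 and 3251 of the 14344 genes were called higher and 1265 lower.

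**Figure D1:**
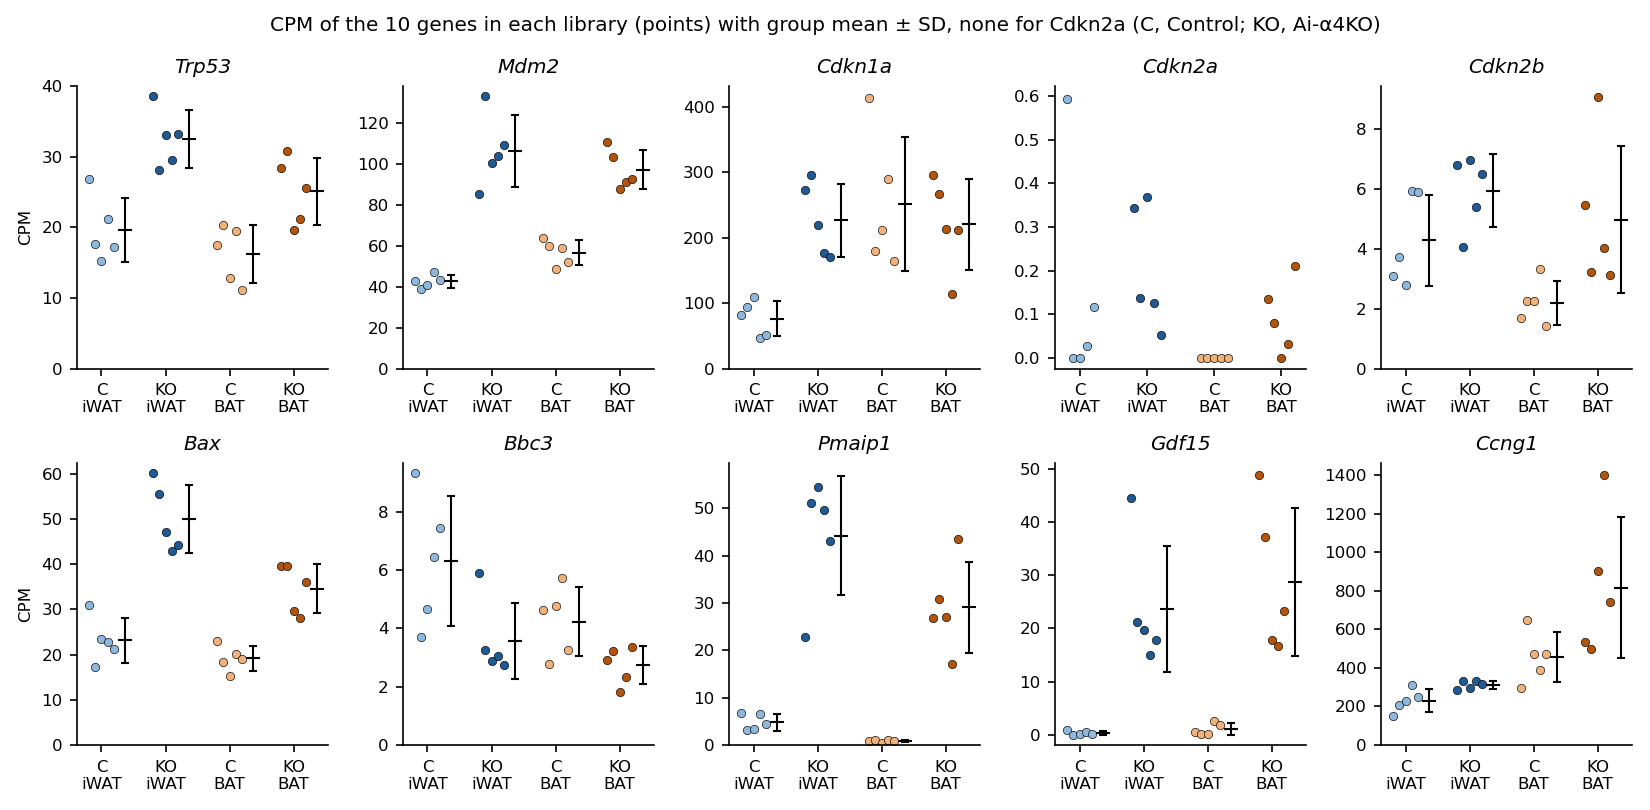
CPM (y axis, linear, 1 scale per panel) of the 10 genes in the 20 libraries, by genotype and tissue. Points are libraries and bars the group mean ± SD, left out for Cdkn2a; Pmaip1 and Gdf15 stand apart by genotype in both tissues, and Cdkn1a does so in iWAT, where Control libraries lie between 46.1 and 109 CPM and Ai-α4KO libraries between 170.1 and 295 CPM.

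Trp53 and its ligase Mdm2 had higher values after α4 loss in both tissues, and only Mdm2 in iWAT met both limits for a call. Trp53 (chromosome 11, 69580359 to 69591873, mm10, plus strand) was at 26.8, 17.7, 15.3, 21.2 and 17.3 CPM in Control iWAT and 38.7, 28.1, 33.2, 29.5 and 33.2 CPM in Ai-α4KO iWAT. The lowest Ai-α4KO library stood just above the highest Control library. The log2 fold change was 0.72 (standard error 0.16, edgeR adjusted p = 0.0025), a 1.65-fold difference that passed the p and not the fold limit. In BAT Trp53 was at 17.5, 20.3, 12.8, 19.4 and 11.1 CPM in Control and 28.4, 30.8, 19.6, 21.2 and 25.7 CPM in Ai-α4KO libraries. The groups overlapped by 1 library on each side, and the difference of 0.60 (standard error 0.19) was not called (edgeR adjusted p = 0.015).

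Mdm2 (chromosome 10, 117688875 to 117710758, minus strand) varied little within groups, with a ratio of highest to lowest library of 1.22 to 1.56. Control iWAT libraries held 43.0, 38.7, 40.9, 47.2 and 43.4 CPM, and Ai-α4KO iWAT libraries held 85.3, 133, 100.3, 104 and 109 CPM. Even the lowest of these, library 1, was well above every Control library. The rise was 2.48-fold (log2 fold change 1.31, standard error 0.12, edgeR adjusted p = 8.26e-06). In BAT Mdm2 was at 63.8, 59.9, 48.5, 59.0 and 52.1 CPM in Control and 111, 103, 87.6, 91.4 and 92.8 CPM in Ai-α4KO libraries. The groups again did not overlap, at a 1.67-fold difference (log2 fold change 0.74, standard error 0.10, edgeR adjusted p = 6.65e-05) that was under the limit for a call. Mdm2 in BAT was called with library size alone (1.012) and with limma on log2(FPKM + 0.1) (1.006), just past the fold limit. The effect in BAT was lower than that in iWAT by 0.54 on the log2 scale (standard error 0.16), which did not pass as a difference between tissues (edgeR adjusted p = 0.026).

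Cdkn1a (chromosome 17, 29090986 to 29100722, plus strand) rose in iWAT and not in BAT, and it was 1 of 2 genes, with Pmaip1, whose effect differed between tissues by the interaction test. Control iWAT libraries held 82.3, 93.8, 109, 46.1 and 51.2 CPM, and Ai-α4KO iWAT libraries held 273, 295, 219, 177 and 170.1 CPM. Every Ai-α4KO library lay above every Control library, with a 2.96-fold rise (log2 fold change 1.56, standard error 0.26, edgeR adjusted p = 4.35e-04). In BAT the Control libraries were already at 414, 180.4, 212, 289.7 and 164 CPM, and the Ai-α4KO libraries were at 297, 266, 213, 114 and 211 CPM. The BAT groups overlapped over most of their range, and the log2 difference of -0.23 (standard error 0.29) was not called (edgeR adjusted p = 0.503). It was 0.01 without Control BAT library 1, the highest. The genotype effect was 1.76 lower on the log2 scale in BAT than in iWAT (standard error 0.42, edgeR adjusted p = 0.0092 for the interaction), and over all 15230 genes tested 4.86% had an interaction past this threshold. That call was close to the limit, and without 1 library at a time the adjusted p ran from 0.0060 to 0.024 and stayed below 0.01 only without Control iWAT library 3, Control BAT library 2 or Control BAT library 5. Over all alternatives, which included other scalings and filters, it ran from 6.80e-04 to 0.042. In Control libraries Cdkn1a was 3.22-fold higher in BAT than in iWAT (log2 fold change 1.69, standard error 0.31, edgeR adjusted p = 9.87e-04), where 7.22% of 14260 genes tested were called higher in BAT and 14.7% lower. The annotation places a transcript on the opposite strand over Cdkn1a, and whether the counting used strand is not given in the sources used here.

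Cdkn2a and Cdkn2b lie side by side on chromosome 4, from 89274473 to 89294619 and from 89306289 to 89311032, both on the minus strand. Cdkn2a encodes p16INK4a and, in another reading frame, p19ARF, a protein that holds back MDM2, and the gene counts cannot separate the transcripts. Cdkn2a had 28, 0, 0, 1 and 4 counts in Control iWAT and 12, 6, 14, 7 and 2 counts in Ai-α4KO iWAT. The highest count was in Control iWAT library 1, and through it the Control range enclosed that of Ai-α4KO (exact permutation test on CPM, two-sided, p = 0.69, n = 5 each). The other Control iWAT libraries held at most 0.117 CPM, against 0.0519 to 0.368 CPM in Ai-α4KO iWAT, which still overlapped. Library 1 was also high in the B and T cell markers given above, and their part in its count was not tested. In Control BAT all 5 libraries had 0 counts, which allows up to 0.106 to 0.137 CPM per library at 3 counts, and Ai-α4KO BAT libraries had 5, 3, 0, 1 and 6 counts. Only 2 of these lay above 3 counts, and no fold change is given (exact permutation test on CPM, two-sided, p = 0.048, n = 5 each, unadjusted). Cdkn2b, the gene of p15INK4b, was at 2.78 to 5.93 CPM in Control iWAT and 4.06 to 6.96 CPM in Ai-α4KO iWAT, which overlapped (log2 fold change 0.47, standard error 0.26, edgeR adjusted p = 0.153). In BAT Cdkn2b was at 1.68, 2.27, 2.27, 3.32 and 1.43 CPM in Control and 5.48, 3.21, 9.06, 4.02 and 3.13 CPM in Ai-α4KO libraries. Control library 4 reached into the Ai-α4KO range, and library 3 stood highest. The 2.20-fold difference (log2 fold change 1.14, standard error 0.34) missed the call at an edgeR adjusted p of 0.011. It was called without Control BAT library 4 (1.34) or without Ai-α4KO BAT library 2, 4 or 5 (1.26 to 1.27), at an adjusted p below 0.05, by DESeq2 (log2 fold change 1.18), with library size alone (1.39), upper-quartile normalization (1.16), at least 10 counts in every library (1.19) or limma on log2(FPKM + 0.1) (1.28), and in one fit of all 20 libraries (1.18).

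**Figure D2:**
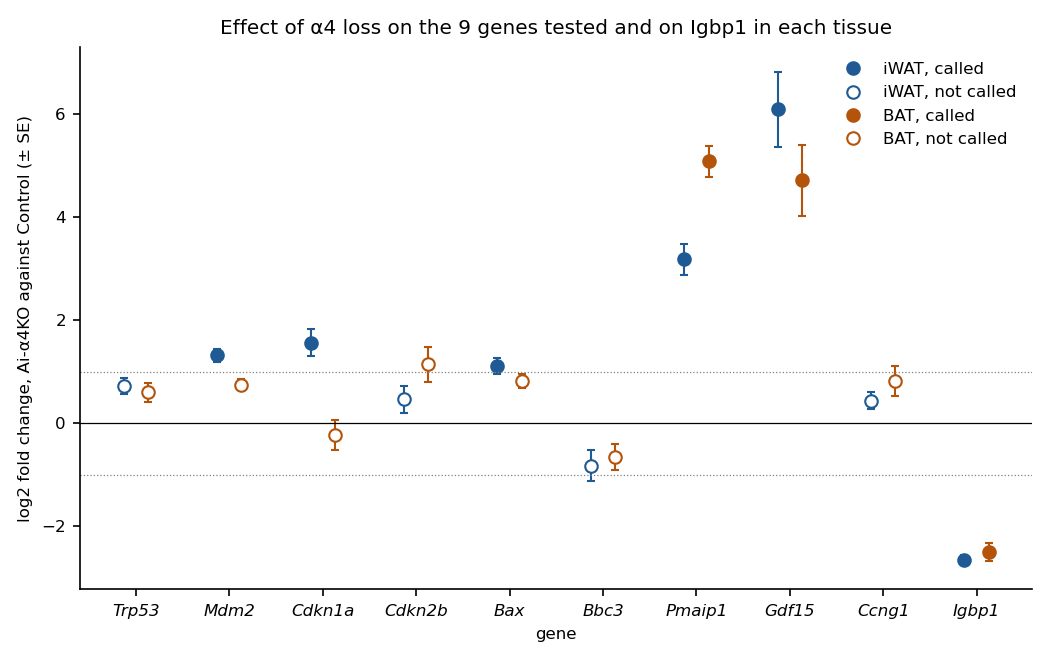
Log2 fold change of Ai-α4KO against Control (y axis, ± standard error) for the 9 genes tested and for Igbp1 (x axis), in iWAT (blue) and BAT (orange). Filled points were called and dotted lines mark a 2-fold change; Cdkn1a stood at 1.56 in iWAT and -0.23 in BAT, and Pmaip1 at 3.18 and 5.08.

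The 3 pro-apoptotic genes of the BCL2 family did not move together. Bax (chromosome 7, 45461695 to 45466898, minus strand), a pore-forming protein of the outer mitochondrial membrane, was at 31, 17.2, 23.6, 22.7 and 21.3 CPM in Control iWAT and 60.3, 55.6, 47.1, 43.0 and 44.2 CPM in Ai-α4KO iWAT. The groups stood apart, at 2.15-fold (log2 fold change 1.10, standard error 0.16, edgeR adjusted p = 1.61e-04). In BAT Bax rose from 23.1, 18.5, 15.4, 20.1 and 19 CPM to 39.6, 39.6, 29.7, 28.1 and 36.1 CPM, again without overlap. At 1.76-fold this passed the p and not the fold limit (log2 fold change 0.81, standard error 0.14, edgeR adjusted p = 3.28e-04). Bax in BAT was called with library size alone (1.09) and with limma on log2(FPKM + 1) (1.04) or log2(FPKM + 0.1) (1.07). The annotated gene Gm45808 lies over Bax on the same strand, so the counting could have split reads between them.

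Pmaip1 (chromosome 18), a BH3-only protein that binds MCL1, was at 6.78, 3.08, 3.31, 6.63 and 4.4 CPM in Control iWAT and 22.9, 51.1, 54.5, 49.6 and 43.0 CPM in Ai-α4KO iWAT. Library 1 of the Ai-α4KO group was the lowest and still more than 3 times the highest Control library. In BAT the Control libraries held 0.819, 1.06, 0.453, 1.02 and 0.796 CPM, or 10 to 29 counts, and the Ai-α4KO libraries held 26.8, 30.8, 27, 17.1 and 43.6 CPM. The rise was 9.05-fold in iWAT (log2 fold change 3.18, standard error 0.30, edgeR adjusted p = 1.09e-05) and 33.8-fold in BAT (log2 fold change 5.08, standard error 0.30, edgeR adjusted p = 9.73e-08). The effect was 1.93 larger on the log2 scale in BAT (standard error 0.42, edgeR adjusted p = 0.0056 for the interaction). After α4 loss the levels overlapped between tissues, at 44.2 ± 12.6 CPM in iWAT and 29.1 ± 9.57 CPM in BAT (SD, n = 5 each), while in Control mice BAT was 5.93-fold below iWAT (log2 fold change -2.57, standard error 0.31, edgeR adjusted p = 5.96e-05). Without Control iWAT library 4 or Control BAT library 1, 3 or 5 the interaction had an adjusted p of 0.011 to 0.013 and was not called, at log2 differences of 1.78 to 1.92. With limma on log2(FPKM + 1), a scale that shrinks differences between low values, it was 0.41 and the log2 fold change in BAT was 3.09, and over all alternatives the adjusted p of the interaction ran from 6.56e-05 to 0.449.

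Bbc3 (chromosome 7, 16309583 to 16318334, plus strand), the gene of PUMA, had lower values where Bax and Pmaip1 were higher. Control iWAT libraries were at 9.32, 3.70, 4.66, 6.45 and 7.44 CPM, and Ai-α4KO iWAT libraries were at 5.89, 3.26, 2.89, 3.06 and 2.75 CPM. The groups overlapped through Ai-α4KO library 1, and the log2 difference of -0.83 (standard error 0.30) was not called (edgeR adjusted p = 0.035). Without that library it was -1.08 and called (edgeR adjusted p = 0.0059). In BAT the ranges were 2.78 to 5.71 CPM in Control and 1.82 to 3.37 CPM in Ai-α4KO libraries, with a log2 difference of -0.66 (standard error 0.25) that was not called (edgeR adjusted p = 0.036).

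Gdf15 (chromosome 8, 70629394 to 70631635, minus strand), a circulating hormone of cellular stress, was nearly silent in Control fat. Control iWAT libraries had 41, 0, 3, 17 and 5 counts, which is 0.868, 0, 0.113, 0.492 and 0.147 CPM, and Ai-α4KO iWAT libraries were at 44.6, 21.3, 19.7, 15.1 and 17.9 CPM. Every Ai-α4KO library was at least 15.1 CPM while no Control library reached 1 CPM. In BAT the Control libraries were at 0.546, 0.117, 0.0906, 2.5 and 1.91 CPM and the Ai-α4KO libraries at 48.8, 37.2, 17.9, 16.6 and 23.3 CPM. The log2 fold change was 6.09 in iWAT (standard error 0.73, edgeR adjusted p = 4.67e-05) and 4.71 in BAT (standard error 0.69, edgeR adjusted p = 9.22e-05). With so few Control counts the size of the fold was less firm than the call, and in iWAT it ran from 4.06 to 7.98 over the alternatives that could test it, which leaves out at least 10 counts in every library, while the highest adjusted p was 3.53e-04. In BAT it ran from 3.84 to 5.38, with a highest adjusted p of 6.19e-04. It was 6.86 in iWAT without Control iWAT library 1 and 5.35 in BAT without Control BAT library 4, the Control library with the most Gdf15 in each tissue. The tissues did not differ in effect past the threshold (log2 difference -1.31, standard error 0.98, edgeR adjusted p = 0.38), and over the alternatives that difference ran from -3.19 to -0.22 and was not called.

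Ccng1 (chromosome 11, 40748552 to 40755286, minus strand), which encodes a cyclin that recruits a phosphatase to MDM2, had higher values after α4 loss that were not called in either tissue. In iWAT it was at 151, 209.6, 228, 312 and 249.5 CPM in Control and 287, 334, 295, 334 and 314 CPM in Ai-α4KO libraries. The ranges overlapped through Control library 4, and the log2 difference of 0.44 (standard error 0.17) was not called (edgeR adjusted p = 0.044). In BAT it was at 294, 646, 471, 391 and 471 CPM in Control and 536, 498, 902, 1403 and 742 CPM in Ai-α4KO libraries. The highest, library 4, also had the highest sum of 5 skeletal muscle markers, 34655 CPM. The other Ai-α4KO BAT libraries had muscle sums of 10427, 11701, 19007 and 18887 CPM in order, and the Control BAT libraries 731, 6922, 4139, 4104 and 7554 CPM. Control BAT library 1, lowest in Ccng1, was also lowest in the muscle sum, and 4 of the 5 markers were called higher in Ai-α4KO BAT. The log2 difference of Ccng1 in BAT was 0.81 (standard error 0.29) and was not called (edgeR adjusted p = 0.026), and the part of muscle in it was not tested. This difference was called with library size alone (1.05) and with limma on log2(FPKM + 1) (1.01) or log2(FPKM + 0.1) (1.02). In Control libraries Ccng1 was 1.93-fold higher in BAT than in iWAT, which passed the p and not the fold limit (log2 fold change 0.95, standard error 0.22, edgeR adjusted p = 0.0038). It was called without Control iWAT library 4 or Control BAT library 1 (1.07 in both).

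**Figure D3:**
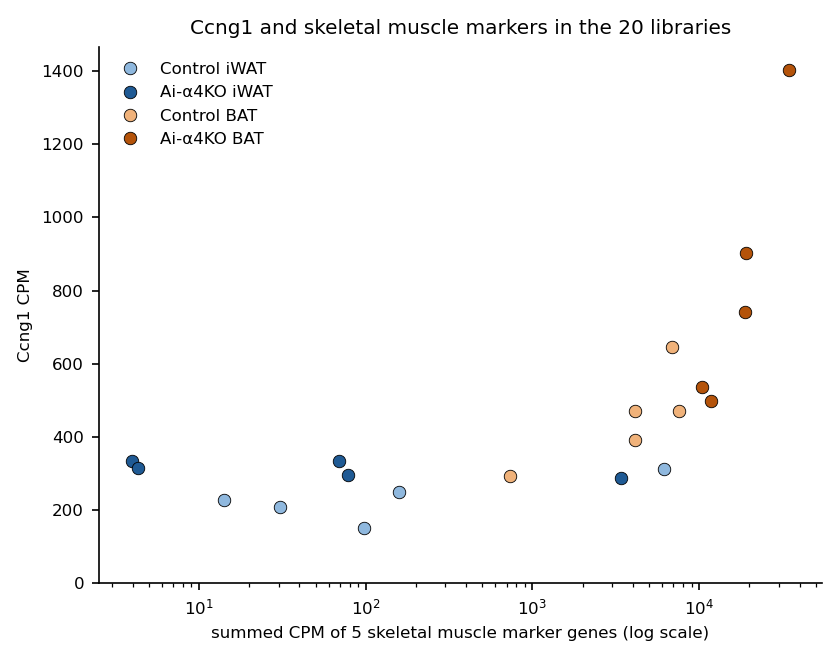
Ccng1 CPM (y axis) against the summed CPM of 5 skeletal muscle marker genes (x axis, log scale) in the 20 libraries, coloured by group. Ai-α4KO BAT library 4 is highest on both axes, at 1403 and 34655 CPM, and iWAT libraries lie between 151 and 334 CPM over a muscle sum of 3.94 to 6174 CPM.

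Levels of different genes were compared per length, in the deposited FPKM. In Control iWAT the order was Ccng1 (59.2 ± 15.7 FPKM, SD, n = 5), Cdkn1a (33.6 ± 10.8), Bax (24.0 ± 5.81), Mdm2 (12.4 ± 1.37), Trp53 (9.53 ± 2.63), Bbc3 (2.90 ± 1.12), Cdkn2b (2.78 ± 1.05), Pmaip1 (1.66 ± 0.671), Gdf15 (0.276 ± 0.311) and Cdkn2a (0.122 ± 0.211). Neighbours in this order overlapped between libraries except Bax and Mdm2, Trp53 and Bbc3, and Pmaip1 and Gdf15. After α4 loss in iWAT, Cdkn1a came first at 109.8 ± 27.6 FPKM, overlapping Ccng1 at 87.8 ± 5.89 FPKM, and Gdf15 moved up 4 places to 21.5 ± 11.1 FPKM, between Mdm2 (33.6 ± 5.34) and Trp53 (17.1 ± 2.31), with values that overlapped both. In Control BAT Ccng1 (100.6 ± 25.8 FPKM) and Cdkn1a (96.9 ± 40.9) overlapped at the top, and Pmaip1 was second to last at 0.243 ± 0.0706 FPKM. In Ai-α4KO BAT Ccng1 was at 209 ± 81.5 FPKM, Cdkn1a at 100.4 ± 35.5 FPKM, Gdf15 at 24.6 ± 12.8 FPKM and Pmaip1 at 10.05 ± 3.47 FPKM (SD, n = 5 each).

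In Control mice, 2 of the 9 genes tested were called between tissues, Cdkn1a higher and Pmaip1 lower in BAT, against 7.22% higher and 14.7% lower over all genes tested, so the share of the 9 was close to that background. Mdm2 was 1.30-fold higher in BAT, without overlap of the libraries but under the fold limit (log2 fold change 0.38, standard error 0.09, edgeR adjusted p = 0.0062). Cdkn2b was 1.99-fold lower in BAT and not called (log2 fold change -0.997, standard error 0.30, edgeR adjusted p = 0.016), but was called without Control BAT library 4 (-1.19). Trp53, Bax, Bbc3 and Gdf15 had adjusted p of 0.095 to 0.204 by the edgeR test.

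Across the 20 libraries, which fall into the 4 groups, the 5 genes of the 15230 tested whose log2 CPM was most like that of Mdm2 were Rnd1, Rsad2, Cxcl10, Skap2 and Wdr43 (Pearson r from 0.965 to 0.954). Those most like Trp53 were Rela, Arhgef2, Nfkb2, Tubb2a and Hnrnpm (r from 0.922 to 0.907), and those most like Cdkn1a were Fam83g, Fnbp1l, Elp5, Wdr74 and Atox1 (r from 0.889 to 0.865). Among the 10 genes, Bax ranked 15th for likeness to Trp53 (r = 0.890) and Gdf15 ranked 99th for likeness to Mdm2 (r = 0.908). Cdkn1a was less like Trp53 (r = 0.252) than like Mdm2 (r = 0.614). These values describe shared differences between groups and tissues and carry no test.

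Of 101 other genes in 8 lists around this pathway, 99 were tested in iWAT, where 20 were called higher and 9 lower, and 98 in BAT, where 29 were called higher and 12 lower. The counts called lower were below the 10.7% in iWAT and 13.3% in BAT of all genes given above, and those called higher were above the 11.3% and 18.2%, which is a description of the lists and no test. Names given from the lists are the genes called in the same direction in both tissues, up to 4 per list, and any other name was chosen after its values were seen. Of 13 regulators of p53 tested in each tissue, Chek1, a checkpoint kinase that also marks S phase, rose in both (log2 fold change 2.36 in iWAT and 2.33 in BAT). Trp63, a p53 relative of epithelia, fell in iWAT (-1.34) and rose in BAT (1.70), with an interaction of 3.06 (standard error 0.63, edgeR adjusted p = 0.0041). The iWAT call of Trp63 was lost without Control library 2, 3 or 5 or Ai-α4KO library 2, 3 or 5, and with Control libraries 1 and 4 left out. The number of regulators called higher in BAT fell from 2 to 1 without Control BAT library 3, 4 or 5 or Ai-α4KO BAT library 3, 4 or 5. The other 11 regulators were not called in either tissue, among them Mdm4, the partner of MDM2, at -0.21 in iWAT and -0.66 in BAT.

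The other p53 targets of growth arrest and repair went both ways. Of 20 tested in iWAT, Plk2, Plk3 and Gtse1 rose (1.82, 1.58 and 1.97) and Ddit4 and Phlda3 fell (-1.64 and -1.29), with a list median of -0.14. Plk2 and Plk3 are polo-like kinases, Gtse1 restrains p53 in G2 and is itself a gene of cycling cells, and Ddit4 is an inhibitor of mTORC1. In BAT these 5 moved the same way (1.85, 1.97, 2.40, -1.84 and -1.40), Gadd45a and Sfn rose (1.45 and 2.17), and Sesn2, Ddb2 and Trp53inp1 fell (-1.61, -1.06 and -1.66), with a list median of -0.17. Ddit4 in iWAT was not called without Control library 1, 2, 4 or 5 or Ai-α4KO library 3 or 5, at adjusted p up to 0.018. The number of targets called lower in iWAT was 0 without Control library 5 or Ai-α4KO library 3 or 5 and 1 without Control library 4 or Ai-α4KO library 2. The other 15 in iWAT were not called and ran from -0.99 for Sesn2 to 0.92 for Btg2.

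Of 13 other p53 targets that act in cell death, 4 rose and 1 fell in iWAT, while 5 rose and 1 fell in BAT, with a list median of 0.79 in iWAT and 0.65 in BAT. Eda2r, a receptor of the TNF family, rose by 2.29 and 2.71 on the log2 scale in iWAT and BAT. Tnfrsf23, a decoy receptor, rose by 2.07 and 2.51, and Apaf1, the scaffold of the apoptosome, by 1.89 and 2.16. Trp53i11 fell in both (-2.34 and -2.22). Fas was also called in iWAT (1.01), and Perp and Bid in BAT (1.64 and 2.34). Fas stood at the fold limit, Perp close to the p limit (edgeR adjusted p = 0.0092), and Bid in iWAT just missed the call (1.03, edgeR adjusted p = 0.011). Without 1 library at a time, 3 to 5 of these targets were called higher in iWAT and 4 or 5 in BAT. In the rest of the BCL2 family Bcl2a1a rose by 4.28 and 5.6, Bcl2l11, the gene of BIM, by 1.43 and 1.87, and Mcl1, the protector that NOXA binds, by 1.25 and 1.39, while Hrk fell (-2.96 and -3.05), though not with limma on log2(FPKM + 1), a scale that shrinks low values (-0.10 and -0.18), nor in iWAT on log2(FPKM + 0.1) (-0.74). Bcl2a1a is one of several near-identical copies and a gene of myeloid cells, and the macrophage markers given above rose with it. Bcl2 rose (1.10) and Bcl2l1 fell (-1.23) in BAT. Hrk was low throughout, at 0.521 ± 0.158 CPM in Control iWAT and 1.07 ± 0.259 CPM in Control BAT (SD, n = 5 each).

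**Figure D4:**
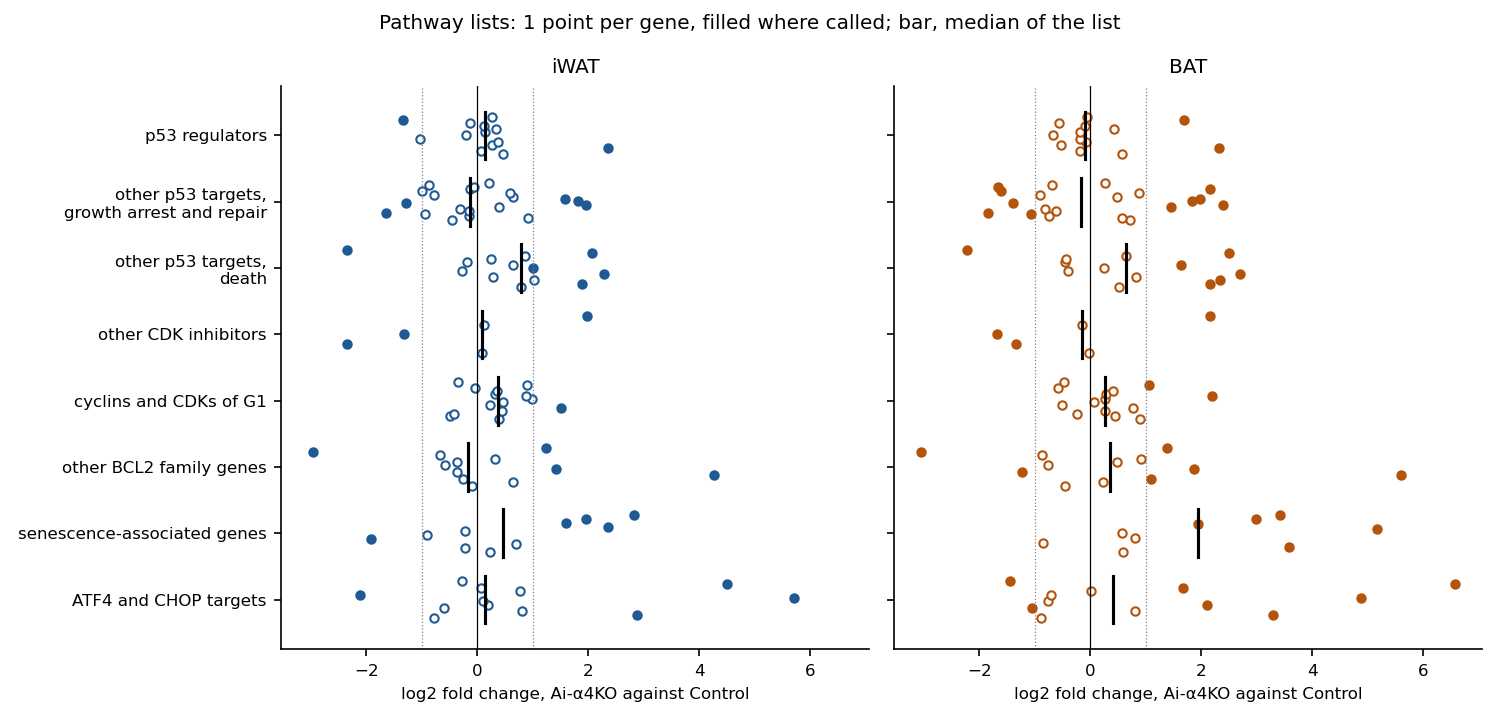
Log2 fold change of Ai-α4KO against Control (x axis) for the genes of 8 pathway lists (rows) in iWAT and BAT. Each point is a gene, filled where called, the bar is the list median and dotted lines mark a 2-fold change; growth arrest and repair targets lie on both sides of 0, and senescence-associated genes have medians of 0.46 in iWAT and 1.95 in BAT, the latter the value of Lmnb1.

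Of 5 other inhibitors of cyclin-dependent kinases, 1 rose and 2 fell in each tissue. Cdkn1c (p57) fell in iWAT (-2.35) and in BAT (-1.34), and Cdkn2c (p18) fell in both (-1.32 and -1.68). Cdkn1c in BAT was not called without Control library 1, 2 or 4 or Ai-α4KO library 4. Cdkn3, a phosphatase expressed in dividing cells, rose in both (1.98 and 2.15), beside the rise of the cycling markers. Cdkn1b and Cdkn2d were at 0.08 and 0.13 in iWAT and -0.02 and -0.15 in BAT and were not called. Among 14 cyclins, kinases, pocket proteins and E2F transcription factors of G1, Ccne2 rose in iWAT (1.51) and E2f1 and Rbl1 rose in BAT (2.20 and 1.06), and none fell. The iWAT count was 2 without Control library 2 or Ai-α4KO library 1, and the BAT count was 1 without Control library 1 or 3 or Ai-α4KO library 3.

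Among 11 senescence-associated genes, 4 of the 10 tested in iWAT rose and 1 fell, and 5 of the 9 tested in BAT rose. Plaur, the urokinase receptor, rose by 2.83 in iWAT and 3.42 in BAT, Il1a by 2.36 and 5.17, and Mmp3 by 1.96 and 2.99. Lmnb1, a lamin that is known to be lost in senescent cells, rose as well (1.60 and 1.95), from 11.7 ± 3.05 to 35.8 ± 6.95 CPM in iWAT and from 5.12 ± 0.949 to 20.4 ± 4.15 CPM in BAT (SD, n = 5 each). Gpnmb rose in BAT (3.59) and Igfbp3 fell in iWAT (-1.91), while Glb1, the gene of lysosomal β-galactosidase, was at 0.22 and 0.59 and was not called. Il1a in iWAT stood at 0.244 ± 0.200 CPM in Control and 1.30 ± 0.332 CPM in Ai-α4KO libraries (SD, n = 5 each). In BAT it stood at 0.0473 ± 0.0378 CPM in Control and 1.94 ± 0.582 CPM in Ai-α4KO libraries, so the size of its fold rests on very few Control counts. Its iWAT call was lost without Control library 4 or 5 or Ai-α4KO library 1, 2, 3 or 4, at adjusted p up to 0.019. Macrophages are a known source of Plaur and Il1a, and their part in these rises was not tested.

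Of 12 ATF4 and CHOP targets, a list chosen because Gdf15 is also one, 3 rose and 1 fell in iWAT, while 5 rose and 2 fell in BAT. Slc7a11, the cystine transporter, rose by 4.50 in iWAT and 6.58 in BAT, Fgf21, a stress hormone, by 5.71 and 4.89, and Atf3, a transcription factor induced by stress, by 2.89 and 3.29. Fgf21 stood at 0.206 ± 0.105 CPM in Control iWAT and 0.257 ± 0.153 CPM in Control BAT, against 11.01 ± 3.71 and 7.83 ± 5.001 CPM in Ai-α4KO libraries (SD, n = 5 each), and neither Fgf21 nor Il1a could be tested with at least 10 counts in every library. Phgdh fell in iWAT (-2.11), Chac1 and Psat1 rose in BAT (2.12 and 1.68), and Trib3 and Atf5 fell in BAT (-1.44 and -1.05). The count of those lower in BAT was 1 without Control library 1 or 2 or Ai-α4KO library 3 or 4. Atf4 itself was at 0.81 in iWAT and 0.80 in BAT, and Asns, a classical target, was at -0.78 and -0.89, and neither reached 2-fold. Ddit3, the gene of CHOP, was at 0.10 in iWAT and -0.76 in BAT and was not called. Over the 8 lists, the genotype effect differed between tissues for 9 of 99 genes tested, against the 4.86% of all genes given above, with a higher log2 fold change in BAT for Trp63, E2f1, Bcl2, Igfbp5, Igfbp7 and Psat1 (log2 differences from 0.81 to 3.06) and a lower one for Chek2, Cdk2 and Ddit3 (-0.71 to -0.82).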

How the data were processed

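RNA of iWAT and BAT was sequenced from stranded mRNA libraries as pairs of 150 bp reads. STAR 2.5.3a, bcl2fastq 2 and mm10 are named in the submitters' processing notes, and the counting tool is not given in the sources used here. The authors deposited an expected count per gene and library, without normalization, of which 76.66% of nonzero values are whole (to within 1e-6). The authors also deposited an FPKM value, the count per transcript length and per library total.

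Expected counts were rounded, filtered by filterByExpr, normalized by TMM and tested with edgeR 4.0.16 in R 4.3.3 (glmQLFit, glmQLFTest, Benjamini-Hochberg), within each tissue and, for the interaction, over 20 libraries. The standard error is the log2 fold change divided by the root of the F statistic. Single values used exact permutation tests over 252 arrangements. The filter removed Cdkn2a. Replicates are separate libraries whose source animals are not stated, so p-values measure the spread between libraries, and floors and intervals cover counting error only. Alternatives were DESeq2 1.42.0, limma 3.58.1 on log2(FPKM + 1) and log2(FPKM + 0.1), other scalings and filters, a replicate block and leaving out libraries. RefSeq windows and the GENCODE M21 annotation gave positions relative to starts and overlapping genes. The 10 genes and the lists were chosen with earlier results of these data known. Named genes are the 10, Igbp1, up to 4 per list called in the same direction in both tissues, and the 5 most like Cdkn1a, Mdm2 and Trp53, and other names were chosen after their values were seen. Of 153 listed genes, 2 symbols were not matched and were not used, and a further senescence-associated gene is not reported here.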

Additional observations from a re-analysis of the deposited data

Results flagged for a closer look

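Of 43 groups of 5 libraries examined, 3 had a library far from the others, and chance flags about 1 in 20. Cdkn2a stood at 0.593 CPM in Control iWAT library 1, where the next library was at 0.117 CPM. Bbc3 stood at 5.89 CPM in Ai-α4KO iWAT library 1, where the next was at 3.26 CPM. Gdf15 stood at 44.6 CPM in the same Ai-α4KO iWAT library 1, where the next was at 21.3 CPM, and this library also had the highest skeletal muscle markers of its group, 3400 CPM. The genotype effect differed between tissues for Cdkn1a, by -1.76 on the log2 scale in BAT against iWAT (edgeR adjusted p = 0.0092), and for Pmaip1, by 1.93 (edgeR adjusted p = 0.0056).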

How the results depend on the processing

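The number of the 10 genes called in iWAT stayed at 5 or 6, and that between Control tissues at 2 or 3, when each library was left out in turn, and the iWAT number was 4 with at least 10 counts in every library, where Gdf15 could not be tested. In BAT 2 or 3 were then called, and 6 with library size alone, 4 with limma on log2(FPKM + 1) and 6 with limma on log2(FPKM + 0.1), settings that called 3251, 2118 and 3121 of all 14344 genes higher and 1265, 807 and 1205 lower. Library size alone moved the median of all genes to 0.13 in iWAT, 0.23 in BAT and -0.20 between Control tissues. In the interaction 0 to 2 were called when each library was left out, 1 with library size alone, upper-quartile normalization, no filter or at least 10 counts in every library, 0 with limma on either FPKM scale, 0 with Control iWAT libraries 1 and 4 left out, and 1 with Control iWAT library 4 and Ai-α4KO iWAT library 1 left out, a setting chosen after seeing the data. The cause was not tested. The log2 difference of Cdkn1a in BAT changed sign, to 0.0505 with library size alone and 0.0544 and 0.0547 with the limma settings, and ran from -0.357 to 0.0137 without 1 library. The interaction of Trp53 changed sign to 0.0403 with library size alone, 0.0442 with at least 10 counts in every library, 0.00373 with limma on log2(FPKM + 0.1), 0.0557 with the 2 iWAT libraries of high muscle markers left out, and ran from -0.207 to 0.0852 without 1 library. That of Igbp1 ran from -0.0148 to 0.342 without 1 library. Among genes named from the lists, limma on log2(FPKM + 1) lost the calls of Hrk, Gtse1 and Il1a in both tissues and of Chek1 in BAT, limma on log2(FPKM + 0.1) lost that of Hrk in iWAT, leaving out Control iWAT libraries 1 and 4 lost those of Ddit4 and Il1a in iWAT, no filter, or leaving out the 2 iWAT libraries of high muscle markers, lost that of Il1a in iWAT, and library size alone or the replicate block lost that of Cdkn1c in BAT.

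Replicate numbers are shared between groups, but same-numbered libraries did not deviate together throughout, with correlations from -0.451 to 0.134 between genotypes in iWAT and from -0.147 to 0.215 in BAT, and 0 and 1 of 5 libraries correlated best with their own number. Between tissues, where shared mice are possible, correlations ran from -0.0808 to 0.221 in Control and from -0.265 to 0.244 in Ai-α4KO libraries, with 2 of 5 best in each. In the interaction, the replicate block joined Control and Ai-α4KO libraries of the same number within a tissue. Mice that may be shared between tissues were therefore not modelled by it. With this block no gene of the 10 was called in the interaction (0, with Cdkn1a at -1.78, adjusted p = 0.012, and Pmaip1 at 1.87, adjusted p = 0.036, by edgeR), and genes called over all dropped from 740 to 262.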
